A study of Mus musculus with 12 samples.

Results

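Gluconeogenesis makes glucose from lactate, glycerol and amino acids, and 10 genes of its enzymes and of closely related sugar steps are described here: Pcx, Pck1, Pck2, Fbp1, Fbp2, G6pc, G6pc3, Slc37a4, Khk and Glyctk. They were picked by name and found by gene symbol in the annotation of the array, which names 18193 genes. All 10 were present, on 18 probe sets (a probe set is a group of short probes read as 1 signal). Of these, 14 are ordinary probe sets and 4 are control probe sets spread along the Pcx transcript. No probe set named a member together with another gene.

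The series title concerns amplification of RNA from nanogram amounts. The tissue group was whole mouse kidney RNA bought from Ambion and assayed at 10 ng. It was set against a universal mouse reference RNA (supplier spelt Strategene in the labels), a bought mixture of RNA from cell lines, assayed at 0.3, 3 and 10 ng. Each group had 3 arrays, and all 12 titles carry the code pRS, which the labels do not spell out. No strain, age, sex, diet or number of animals is given for the kidney RNA, and nothing says whether the arrays of a group came from separate RNA, so a p-value covers the spread among these arrays and no other error. The number of arrays limits the precision. Whole-tissue RNA and pooled RNA were measured, so fewer cells of a type and less RNA per cell cannot be told apart.

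The pathway runs glycolysis backwards and needs its own enzymes at the steps that glycolysis cannot reverse. Pyruvate carboxylase makes oxaloacetate in mitochondria, phosphoenolpyruvate carboxykinase turns oxaloacetate into phosphoenolpyruvate, fructose-bisphosphatase removes a phosphate from fructose bisphosphate, and glucose-6-phosphatase in the endoplasmic reticulum releases free glucose. In mammals the full pathway is known from liver and from the proximal tubule of the kidney. Ketohexokinase and glycerate kinase feed fructose carbon into the same intermediates.

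Signals are linear intensities on a scale that gives every array a 2% trimmed mean of 500. Array medians were 56.6 to 59.6 for kidney, and 47.5 to 53.2, 70.1 to 78.3 and 67.9 to 71.2 for the reference at 0.3, 3 and 10 ng. The background level was 33.65, from Bacillus control probe sets, and 38% to 39.6% of probe sets lay below it in kidney, 40.4% to 42.4% in the reference at 0.3 ng, 33.2% to 35.6% at 3 ng and 35.4% to 36.3% at 10 ng. The 0.3 ng arrays stood apart, with pairwise correlations of 0.821 to 0.858, against 0.939 to 0.963 within the other reference inputs and 0.954 to 0.956 within kidney. The proximal tubule markers matched the kidney label by their summed signals, at 83725 to 85016 in kidney and 262 to 282 in the 10 ng reference. Of these markers, 12 of 12 were called higher in kidney than in that reference, beside 22.7% of all probe sets tested. They passed the filter on low signals only through the kidney arrays and therefore had to differ, so this count is a description. The median of all 27022 probe sets tested lay at a log2 difference of -0.34 for kidney against the 10 ng reference, beside which the member values below can be read. Whether that median reflects the scaling or the RNAs was not tested.

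Most gluconeogenic genes were far higher in kidney than in the reference RNA, and Pck2 was lower. At equal input of 10 ng, 8 of the 10 genes were called higher (Pcx, Pck1, Fbp1, Fbp2, G6pc, Slc37a4, Khk and Glyctk), 1 was called lower (Pck2) and 1 was not called (G6pc3). A call is a limma adjusted p (Benjamini-Hochberg over all probe sets tested) under 0.05. By probe set, 11 of 14 were called higher and 2 lower, beside 22.7% of all probe sets tested that were called higher and 37.1% called lower. The median log2 fold change of the 14 probe sets was 4.20, or 3.03 with signals under background raised to it. All 14 passed the filter on low signals, but 8 did so only through the kidney arrays and therefore had to differ. These 8 are the probe sets of Pck1, Fbp1, Fbp2, G6pc and Glyctk. The counts, and the p-values of these 8, therefore describe the members and support nothing beyond that. Where a limma p-value stands beside a lower bound of the fold, it belongs to the fitted log2 fold change, not to the bound.

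**Figure D1:**
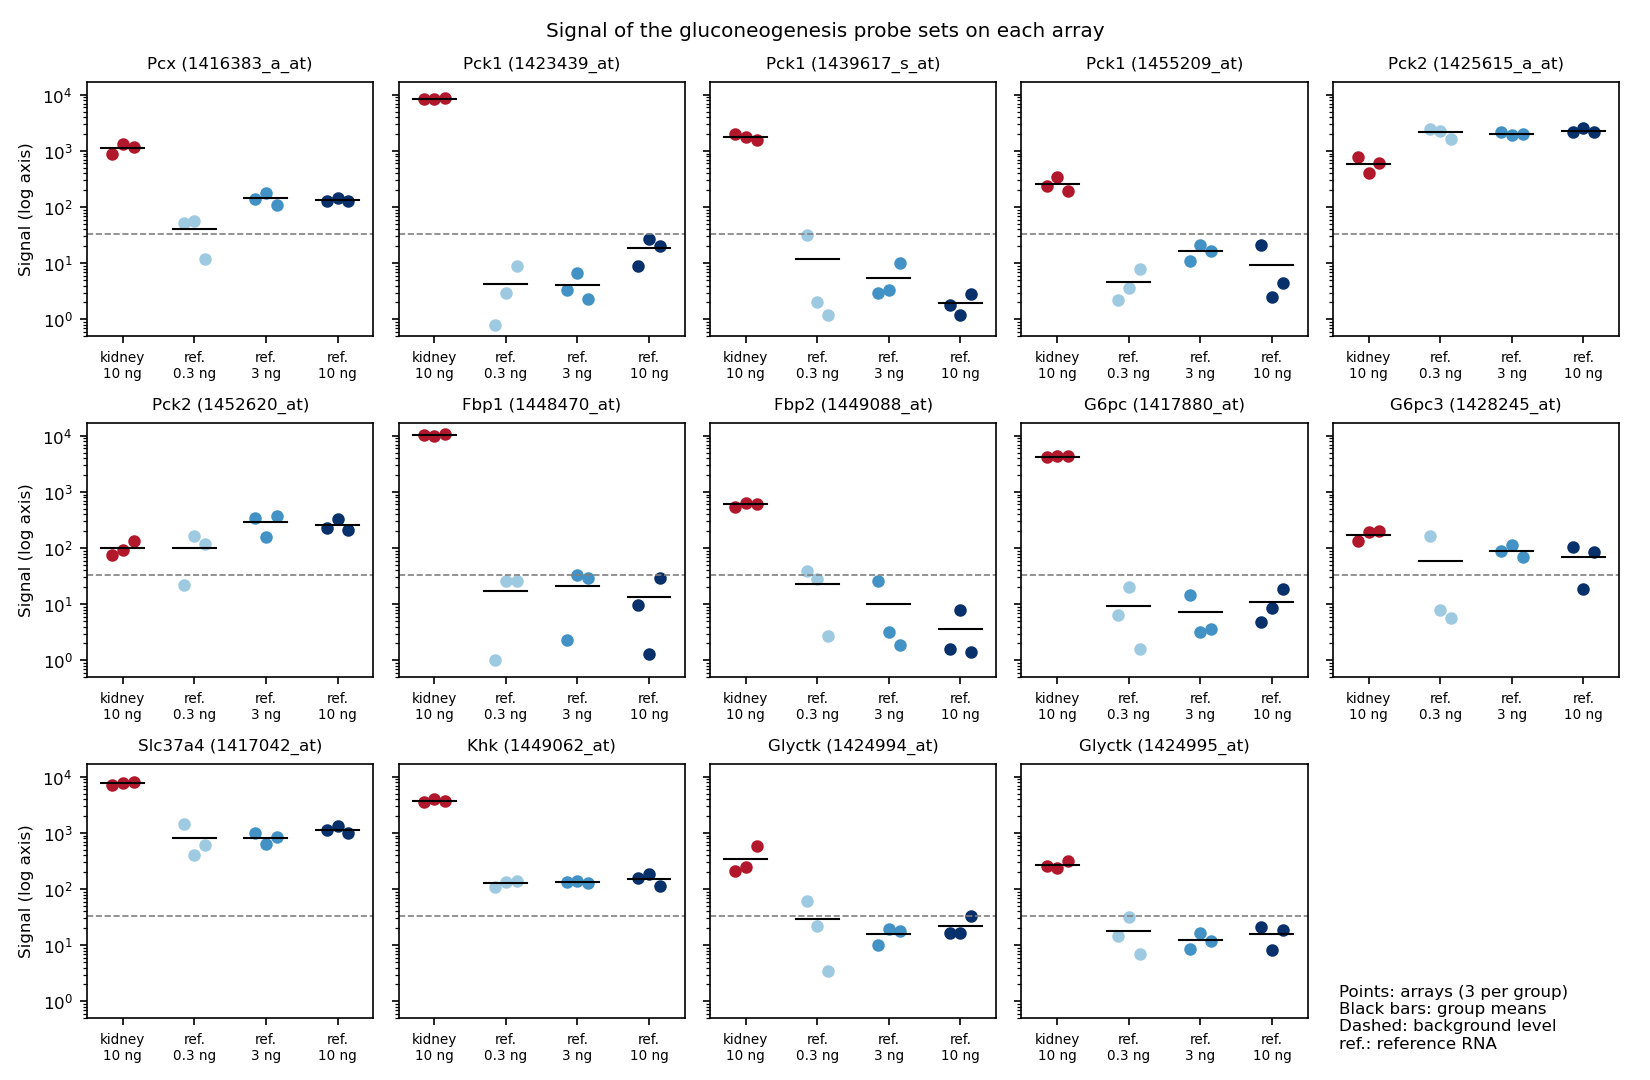
Signal of each of the 14 ordinary probe sets on every array (log axis), with kidney at 10 ng in red and the reference at 0.3, 3 and 10 ng in blues. Points are arrays, black bars are means of 3 arrays and the dashed line is the background level of 33.65. Kidney lies above every reference array for Pck1, Fbp1, G6pc, Slc37a4 and Khk, and below every reference array for the first Pck2 probe set.

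Pcx encodes pyruvate carboxylase, the entry step of the pathway. Its ordinary probe set (1416383_a_at) read 874.0, 1303.7 and 1161.8 in kidney. In the reference it read 52.0, 56.4 and 12 at 0.3 ng, 139.5, 181.1 and 108.0 at 3 ng, and 130.4, 145.7 and 126.7 at 10 ng. Every kidney array lay above every reference array, and the 0.3 ng arrays lay below all other arrays. Kidney averaged 1113 ± 219 and the 10 ng reference 134 ± 10.1 (SD, n = 3 each), a ratio of 8.29. The log2 fold change was 3.00 with a standard error of 0.19 (limma adjusted p = 0.000102).

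The 4 control probe sets read Pcx at the 5′ end, at 2 middle positions and at the 3′ end, and they did not give 1 answer. The 3′ control read 966.8, 1124.8 and 1111.4 in kidney, and 101.9, 146.2 and 44.5 in the 10 ng reference. The 5′ control read 56.8, 107.8 and 63.5 in kidney, and 79.6, 49.7 and 79.5 in the 10 ng reference. Kidney thus stood above the 10 ng reference at the 3′ end with no overlap, while the groups overlapped at the 5′ end. With control probe sets kept in the fit, an alternative chosen after seeing the data, the log2 fold change was 3.54 ± 0.42 (SE, limma adjusted p = 0.00102) at the 3′ end and 0.10 ± 0.31 (limma adjusted p = 0.8) at the 5′ end.

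The middle controls were dim. Middle A read 57.0, 79.0 and 64.1 in kidney and 37.0, 7.0 and 10.9 in the 10 ng reference, and it fell under the filter. Middle B read 93.2, 115.4 and 87.4 in kidney, and all 3 of the 10 ng reference arrays lay below background, so kidney was at least 2.91-fold higher there (limma adjusted p = 8.54e-05 in the same added fit). Within the array, the ratio of the 3′ to the 5′ Pcx control was 10.4 to 17.5 in kidney and 0.473 to 1.08, 1.28 to 2.02 and 0.56 to 2.94 in the reference at 0.3, 3 and 10 ng. The same ratio for Gapdh was 1.12 to 1.13 in kidney, and lay between 1.1 and 1.19 over the reference inputs. For Actb it was 5.25 to 5.5 in kidney and lay between 3.47 and 3.96 over the reference inputs. For Tfrc it varied widely, at 2.92 to 42.9 in kidney and 0.789 to 14.9, 8.87 to 16.3 and 25.4 to 223 in the reference at 0.3, 3 and 10 ng. The part of transcript coverage in the Pcx difference was not tested.

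**Figure D2:**
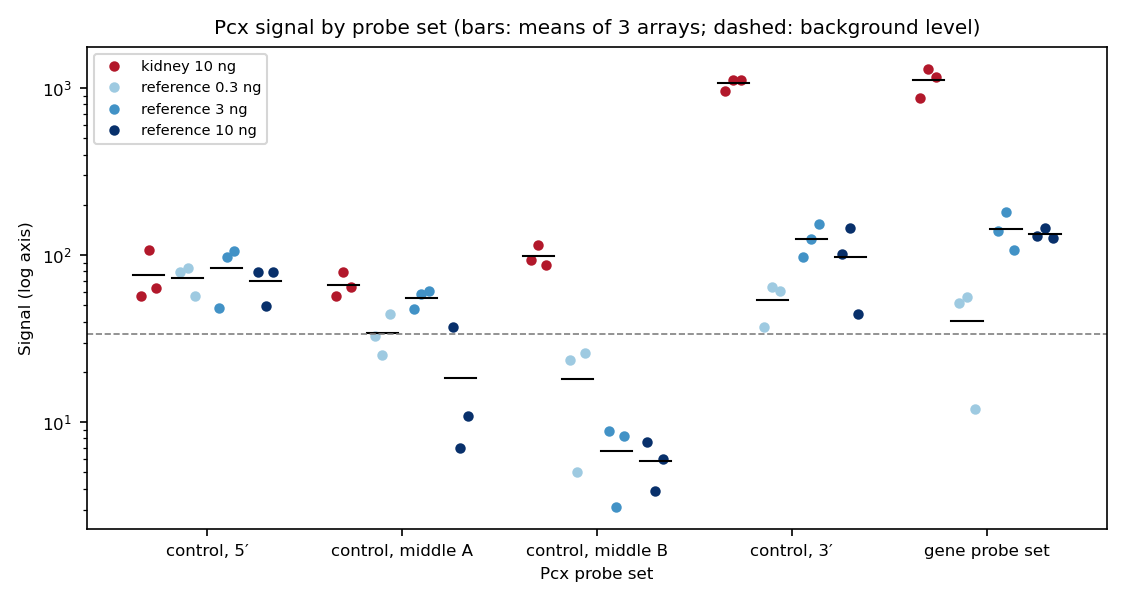
Signal of Pcx (log axis) on its 4 control probe sets and its ordinary probe set, 1 point per array, with kidney at 10 ng in red, then the reference at 0.3, 3 and 10 ng in blues. Bars are means of 3 arrays and the dashed line is the background level of 33.65. The kidney arrays read 966.8 to 1124.8 on the 3′ control and 56.8 to 107.8 on the 5′ control, where they overlap the reference.

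Phosphoenolpyruvate carboxykinase has a cytosolic form, encoded by Pck1, and a mitochondrial form, encoded by Pck2, and the 2 genes moved in opposite directions. The stretches before their RefSeq start sites (GRCm38.p6, 250 bases, 5′ to 3′ on the strand of the gene) are shown because the pair differs so strongly in these RNAs, with the stretch of G6pc, the gene of the last step, beside them. Capitals mark the cAMP response element half-site TGACG or its reverse complement CGTCA, the HNF1 half-site GTTAAT or its reverse complement ATTAAC, and the TATA motif TATAAA or its reverse complement TTTATA.
Pck1: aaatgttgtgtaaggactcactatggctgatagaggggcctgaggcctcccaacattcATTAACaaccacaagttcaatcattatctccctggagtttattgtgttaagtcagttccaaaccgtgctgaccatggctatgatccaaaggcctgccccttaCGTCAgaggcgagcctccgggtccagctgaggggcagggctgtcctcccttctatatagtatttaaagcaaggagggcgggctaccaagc
Pck2: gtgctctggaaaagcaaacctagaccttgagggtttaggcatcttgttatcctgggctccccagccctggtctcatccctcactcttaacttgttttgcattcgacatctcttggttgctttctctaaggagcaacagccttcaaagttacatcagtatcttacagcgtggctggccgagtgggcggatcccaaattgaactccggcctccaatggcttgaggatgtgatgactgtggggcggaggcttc
G6pc: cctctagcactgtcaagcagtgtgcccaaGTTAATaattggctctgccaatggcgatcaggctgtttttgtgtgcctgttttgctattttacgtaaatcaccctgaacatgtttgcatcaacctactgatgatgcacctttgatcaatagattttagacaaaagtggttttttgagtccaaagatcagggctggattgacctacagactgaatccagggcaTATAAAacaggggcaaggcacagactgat
These stretches lie at chr2:173152823-173153072 (Pck1), chr14:55540016-55540265 (Pck2) and chr11:101367466-101367715 (G6pc), all on the plus strand. In that of Pck1 the cAMP half-site lies 90 to 86 bases before the start and the HNF1 half-site 192 to 187 bases before it. In that of G6pc the HNF1 half-site lies 221 to 216 bases and the TATA motif 29 to 24 bases before the start. Pck2 holds none of these letters in this window, and neither do Pcx, Fbp1 and G6pc3, of which Pcx and Fbp1 were called higher in kidney. All 10 members had such a stretch, 13 in all, and the cAMP half-site was found for 4 genes (Pck1, Fbp2, Slc37a4 and Khk), the HNF1 half-site for 4 (Pck1, G6pc, Khk and Glyctk) and the TATA motif for 2 (G6pc and Slc37a4). Counted by stretch, 5, 4 and 2 of the 13 hold the cAMP half-site, the HNF1 half-site and the TATA motif. Among 32851 RefSeq stretches of the same length, 17.8% hold the cAMP half-site, 6.43% the HNF1 half-site and 12.4% the TATA motif. The motifs do not overlap one another in the stretches printed, and a match is a string of letters, not a bound site.

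Pck1 was bright in kidney and below background in the reference. Its probe set 1423439_at read 8388.9, 8446.4 and 8701.1 in kidney. With the reference it read 0.8, 3.0 and 8.8 at 0.3 ng, 3.3, 6.7 and 2.3 at 3 ng, and 9.0, 26.6 and 20.1 at 10 ng. All 9 reference arrays were below background and all kidney arrays far above it, so kidney was at least 253-fold higher than the 10 ng reference. The fitted log2 fold change was 8.65 (limma adjusted p = 2.48e-05), on a probe set that passed the filter only through kidney. The other 2 probe sets of Pck1 had the same order. Probe set 1439617_s_at averaged 1780 ± 244 in kidney and 1.93 ± 0.808 in the 10 ng reference, at least 52.6-fold higher in kidney, and 1455209_at averaged 260 ± 81.5 in kidney and 9.3 ± 10.2 in the 10 ng reference, at least 7.48-fold higher in kidney (limma adjusted p = 5.1e-06 and 0.00111).

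Pck1 is also known for its part in glycerol synthesis in fat cells, and fat cell markers were present in the kidney RNA. Of 6 fat cell markers measured, 5 were tested and all 5 were called higher in kidney than in the 10 ng reference, beside 22.7% of all probe sets tested. Against 3 ng and against 0.3 ng, 3 of the 5 were called higher. Adipoq, Cidec and Retn passed the filter only through kidney, so their calls support nothing beyond description. Summed signals were 10934 to 11718 in kidney and 496 to 663 in the 10 ng reference. Most of the kidney sum came from Fabp4, at 7981 ± 326 in kidney and 391 ± 64.7 in the 10 ng reference. Car3 came next, at 2804.2, 2680.0 and 2859.9 in kidney, while Adipoq averaged 347 ± 47.2 in kidney and 21.7 ± 4.81 in the 10 ng reference. Cidec, Retn and Lep were dim in kidney, at 81.4 to 112.6, 52.8 to 105.4 and 26.6 to 69.6. The part of fat cells in the Pck1 signal was not tested. In the reference at 0.3 ng the same sum ran over 282 to 6427 between arrays, because Fabp4 read 6237.3 on replicate 1, and Pck1 stayed below background on that array with all 3 probe sets.

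Pck2 had the opposite pattern. Its probe set 1425615_a_at read 779.1, 410.5 and 598.9 in kidney. With the reference it read 2491.4, 2285.1 and 1640.3 at 0.3 ng, 2168.5, 1925.3 and 1988.4 at 3 ng, and 2181.5, 2514.3 and 2193.6 at 10 ng. Every kidney array lay below every reference array. Against the 10 ng reference, Pck2 fell by 1.98 on the log2 scale (SE 0.25, limma adjusted p = 0.00134), and the reference mean was 3.85 times that of kidney.

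The second Pck2 probe set (1452620_at) was dimmer and less steady. It read 76.6, 91.5 and 134.3 in kidney and 231.5, 330.4 and 211.8 in the 10 ng reference, with no overlap and a log2 fold change of -1.33 ± 0.27 (SE, limma adjusted p = 0.00798). With all 12 arrays in 1 fit this call was lost (limma adjusted p = 0.114). In the reference it read 347.1, 155.3 and 380.2 at 3 ng, all above kidney, and 22.2, 161.4 and 119.7 at 0.3 ng, which overlap kidney. The log2 fold change was -1.45 against 3 ng (limma adjusted p = 0.0266) and 0.33 against 0.3 ng (limma adjusted p = 0.753), and the call against 3 ng was lost without kidney replicate 1 or 2 or reference 3 ng replicate 1 or 3, with adjusted p-values of 0.0729 to 0.0787. With every array kept, that call was also lost after quantile normalization, with arrays centred on their medians and in 1 fit of all 12 arrays (limma adjusted p = 0.0653, 0.0744 and 0.0866).

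Fructose-bisphosphatase is encoded by Fbp1, the form known from liver and kidney, and Fbp2, the form known from skeletal muscle. The genes lie next to each other on chromosome 13 with 0 genes annotated between them in RefSeq GRCm38.p6, and both were higher in kidney. Fbp1 (1448470_at) read 10158.3, 10023.6 and 10746.4 in kidney. In the reference it read 1.0, 25.7 and 25.4 at 0.3 ng, 2.3, 32.6 and 28.9 at 3 ng, and 9.7, 1.3 and 29.8 at 10 ng. No reference array rose above background, and kidney was at least 306-fold higher than the 10 ng reference (limma adjusted p = 0.000142).

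Fbp2 (1449088_at) read 549.5, 631.4 and 615.2 in kidney. Reference signals were 38.4, 28.4 and 2.7 at 0.3 ng, 25.4, 3.2 and 1.9 at 3 ng, and 1.6, 7.8 and 1.4 at 10 ng. Replicate 1 at 0.3 ng was the single reference array above background, and every kidney array lay above all 9 reference arrays. Kidney was at least 17.8-fold higher than the 10 ng reference (limma adjusted p = 5.79e-05).

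Skeletal muscle markers, set beside Fbp2, went both ways. Of 8 measured, 4 were tested, and 1 (Mb, myoglobin) was called higher and 3 lower in kidney than in the 10 ng reference. Beside these, 22.7% of all probe sets tested were called higher and 37.1% lower. The summed muscle marker signals were 612 to 808 in kidney and 1167 to 1217 in that reference. Myh4, Tnnt3 and Actn3 were below background on all kidney arrays, and the part of muscle transcripts in the Fbp2 signal was not tested. Of 11 liver cell markers measured, 7 were tested and all 7 were called higher in kidney, beside 22.7% of all probe sets tested. Their summed signals were 22691 to 22944 in kidney and 168 to 252 in the 10 ng reference. In that reference 8 of the 11 were below background on all arrays. Genes that passed the filter only through kidney had to differ, so this count is a description. Fgb and Tat were below background on all kidney arrays, and Alb, the defining liver transcript, averaged 136 ± 30.5 in kidney and 44 ± 26.6 in the 10 ng reference. The part of liver-type transcripts in the Fbp1 and G6pc signals was not tested. Intestinal epithelium, which also expresses several members, had summed marker signals of 5856 to 6294 in kidney and 153 to 180 in the 10 ng reference, with Fabp2 and Cdx1 below background on all kidney arrays.

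Glucose-6-phosphatase releases glucose inside the endoplasmic reticulum, where Slc37a4 brings in its substrate. G6pc, the catalytic subunit known from liver and kidney, read 4203.7, 4290.8 and 4299.1 in kidney (1417880_at). The reference arrays gave 6.4, 20.2 and 1.6 at 0.3 ng, 14.7, 3.2 and 3.6 at 3 ng, and 4.9, 8.6 and 18.7 at 10 ng. The reference arrays were all below background, and kidney was at least 127-fold higher than the 10 ng reference (limma adjusted p = 3.13e-05). The kidney arrays of G6pc had an SD of 0.02 on the log2 scale, the smallest among the 14 probe sets in kidney.

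G6pc3, a catalytic subunit known from nearly all tissues, was dim in every group. It read 131.4, 190.9 and 201.1 in kidney (1428245_at). In the reference it read 165.7, 7.8 and 5.6 at 0.3 ng, 87.1, 113.7 and 69.4 at 3 ng, and 105.2, 18.9 and 85.4 at 10 ng. Kidney lay above all arrays at 3 and 10 ng and overlapped those at 0.3 ng, where replicate 1 was high and the others were below background. The log2 fold change was 1.53 ± 0.62 (SE) against 10 ng and missed the threshold (limma adjusted p = 0.0772), was 0.93 ± 0.26 against 3 ng and passed it (limma adjusted p = 0.0257), and was 2.72 ± 1.15 against 0.3 ng (limma adjusted p = 0.12).

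These G6pc3 calls changed with the processing and with single arrays. With every array kept, the value against 10 ng passed the threshold with signals raised to background, after quantile normalization and with arrays centred on their medians (limma adjusted p = 0.0423, 0.0487 and 0.0473). The call against 3 ng was lost without the filter and in 1 fit of all 12 arrays (limma adjusted p = 0.0559 and 0.469), while that 1 fit gave a call against 0.3 ng (limma adjusted p = 0.0432). Without reference 10 ng replicate 2 the value against 10 ng was 0.83 (limma adjusted p = 0.0449). Without reference 0.3 ng replicate 1 the value against 0.3 ng was 4.06 (limma adjusted p = 0.00151). The call against 3 ng was lost without kidney replicate 2 or 3 or reference 3 ng replicate 1 or 3, with adjusted p-values of 0.0655 to 0.0775.

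Slc37a4, the glucose-6-phosphate transporter, was clearly above background in both RNAs. It read 7090.7, 7877.8 and 8157.9 in kidney (1417042_at). Signals in the reference were 1449.5, 399.5 and 611.9 at 0.3 ng, 984.9, 644.4 and 840.5 at 3 ng, and 1109.6, 1342.0 and 1003.3 at 10 ng. Every kidney array lay above every reference array, by 6.69 times between the means of kidney and the 10 ng reference (log2 fold change 2.75 ± 0.16 SE, limma adjusted p = 8.02e-05).

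The genes that bring fructose carbon into the pathway were also higher in kidney. Khk, ketohexokinase, phosphorylates fructose. It read 3549.7, 3972.0 and 3772.7 in kidney (1449062_at). It gave signals in the reference of 111.1, 135.6 and 141.2 at 0.3 ng, 134.9, 138.7 and 130.5 at 3 ng, and 159.1, 184.4 and 114.2 at 10 ng. The groups did not overlap between kidney and any reference input, and the kidney mean was 24.7 times that of the 10 ng reference (log2 fold change 4.62 ± 0.20 SE, limma adjusted p = 3.52e-05). Across the reference inputs the Khk means lay close together, at 129 ± 16, 135 ± 4.1 and 153 ± 35.6 at 0.3, 3 and 10 ng.

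Glyctk encodes glycerate kinase, which makes 2-phosphoglycerate from glycerate. Probe set 1424994_at read 206.4, 248.5 and 574.7 in kidney and 16.2, 16.5 and 32.9 in the 10 ng reference, and 1424995_at read 252.7, 240.2 and 318.1 in kidney and 20.9, 8.2 and 18.5 in the 10 ng reference. Kidney replicate 3 was the highest kidney array on both, and all 10 ng reference arrays were below background. Kidney was at least 9.18-fold higher on the first and at least 7.97-fold higher on the second (limma adjusted p = 0.00123 and 0.000242). At 0.3 ng the first probe set read 61.2, 21.9 and 3.5, and its call there (limma adjusted p = 0.0225) was lost without any 1 of the kidney replicates or without reference 0.3 ng replicate 2, with adjusted p-values of 0.0542 to 0.0782.

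The comparisons of kidney with the reference at 3 and at 0.3 ng share the kidney arrays with the one at 10 ng and change RNA and input together. Against 3 ng, 12 of the 14 probe sets were called higher and 2 lower, beside 21.6% and 34.5% of all probe sets tested. Against 0.3 ng, 11 were called higher and 1 lower, beside 17.9% and 16.5% of all probe sets tested. The log2 fold changes against 0.3, 3 and 10 ng were 4.87, 2.94 and 3.00 for Pcx, 3.43, 3.24 and 2.75 for Slc37a4, 4.83, 4.76 and 4.62 for Khk, and -1.86, -1.81 and -1.98 for the first Pck2 probe set. Those of Pck1, Fbp1 and G6pc stand as the same lower bounds of 253-fold, 306-fold and 127-fold at all 3 inputs, since the reference was below background throughout.

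**Figure D3:**
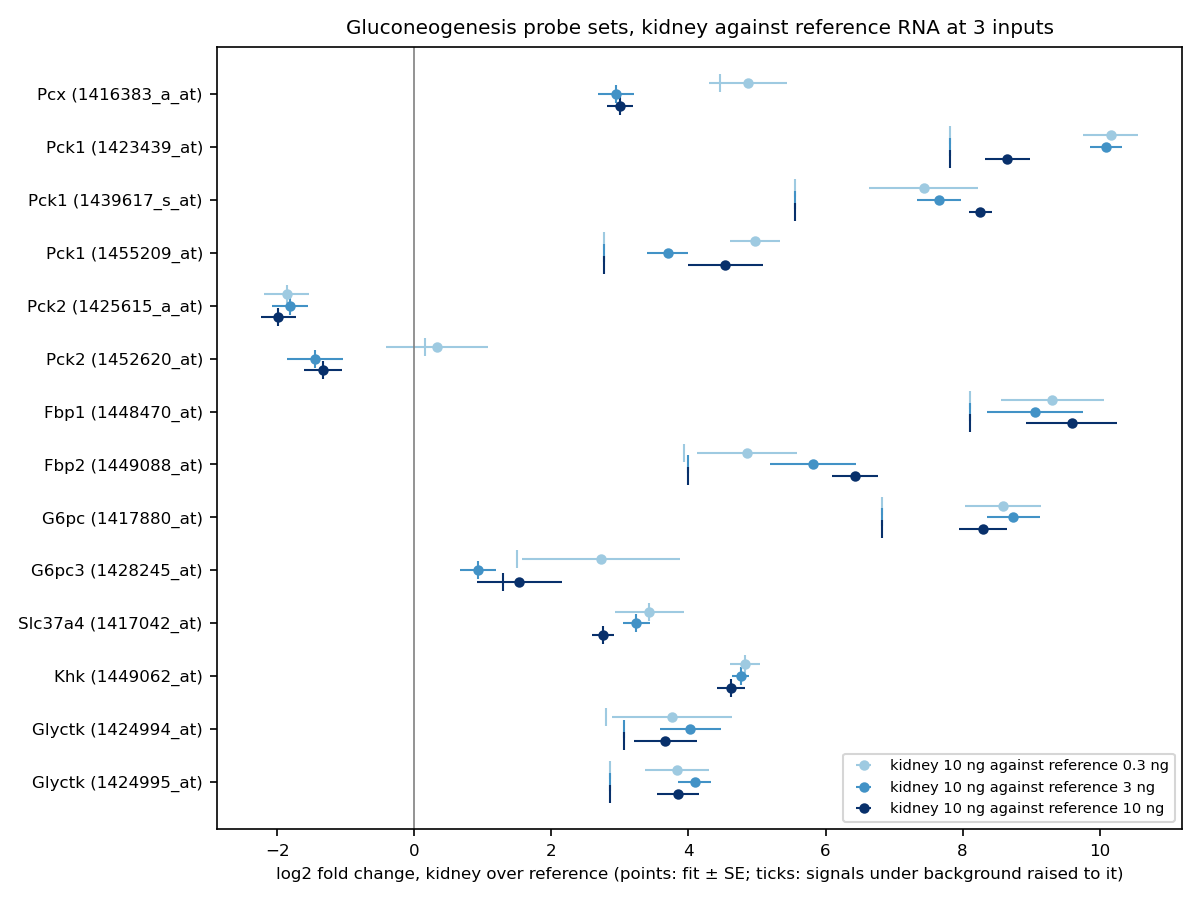
Log2 fold change of kidney at 10 ng over the reference at 0.3, 3 and 10 ng for each probe set (points, with bars of 1 standard error from limma). Ticks mark the same difference with signals under the background level of 33.65 raised to it. Both values lie above 0 at every input for all probe sets but those of Pck2, and the second Pck2 probe set lies at 0.33 against 0.3 ng.

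The reference RNA alone shows how far input moved the members that lie above background in it. Of the 14 probe sets, 8 were below background on every 10 ng reference array, so they cannot show a fall at lower input. Among the 14 probe sets limma called 0 between reference 3 ng and 10 ng (1 at an unadjusted p under 0.05), 0 between 0.3 ng and 10 ng (2 unadjusted) and 0 between 0.3 ng and 3 ng (2 unadjusted). The shares of all probe sets called were 0%, 0.792% and 0.185% in the same comparisons. An unadjusted p under 0.05 was reached by 2670, 4118 and 3549 of all 27022. The 1 member probe set with such a p between 3 and 10 ng was 1423439_at of Pck1, below background on every reference array. In each of the other comparisons these were Pcx and 1 Pck1 probe set. Between 3 and 10 ng, Slc37a4 read lower on every 3 ng array, by a log2 difference of -0.49 ± 0.22 (SE, limma adjusted p = 0.527). The first Pck2 probe set also read lower on every 3 ng array, with a difference of -0.18 ± 0.14 (SE, limma adjusted p = 0.691). Below background, 1423439_at of Pck1 read lower and 1439617_s_at of Pck1 read higher on every 3 ng array. How many of all probe sets separate this way between reference inputs was not counted, so these orders are descriptions.

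Among the probe sets above background on every 10 ng reference array, Pcx had the largest difference at 0.3 ng, which did not pass the test. Its ordinary probe set averaged 40.1 ± 24.5 at 0.3 ng, 143 ± 36.7 at 3 ng and 134 ± 10.1 at 10 ng. The 0.3 ng arrays overlapped neither other input, and the log2 difference was -1.87 ± 0.56 from 10 ng (SE, limma adjusted p = 0.209) and -1.93 ± 0.58 from 3 ng (SE, limma adjusted p = 0.263). With all 12 arrays in 1 fit, Pcx was called lower at 0.3 ng against both, with limma adjusted p-values of 0.0435 and 0.0415. That fit called 1539 and 1344 of all probe sets in these comparisons, against 214 and 50 in the main fits. The 3′ Pcx control averaged 54.2 ± 14.7 at 0.3 ng, 126 ± 28.4 at 3 ng and 97.5 ± 51 at 10 ng, so its 0.3 ng arrays lay below those at 3 ng and overlapped those at 10 ng. Its log2 difference was -0.69 from 10 ng and -1.17 from 3 ng (limma adjusted p = 0.545 and 0.231 with controls kept in the fit). The 5′ Pcx control overlapped between inputs, reading 79.1, 84.1 and 56.7 at 0.3 ng and 79.6, 49.7 and 79.5 at 10 ng. The second Pck2 probe set lay at a difference of -1.66 ± 0.73 from 10 ng (SE, limma adjusted p = 0.36), with no overlap.

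The spread of the members between arrays also grew at the lowest input. Their median SD of log2 signal was 0.21 in kidney, and 1.07, 0.39 and 0.53 in the reference at 0.3, 3 and 10 ng. Over all probe sets tested the same medians were 0.26 in kidney, and 0.70, 0.31 and 0.24 in the reference. Part of the members lay below background in the reference, where values such as 1.0 and 25.7 for Fbp1 at 0.3 ng have no order. Slc37a4, well above background, still ran from 399.5 to 1449.5 at 0.3 ng and from 1003.3 to 1342.0 at 10 ng.

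The neighbours of these enzymes in the pathway differed group by group in kidney against the 10 ng reference. Of 8 genes of the reversible steps with a probe set of their own, shared by glycolysis and gluconeogenesis, 1 was called higher and 4 lower, with a median log2 fold change of -0.47, beside a median of -0.34 over all probe sets tested. Of all probe sets tested, 22.7% were called higher and 37.1% lower. The muscle phosphoglycerate mutase Pgam2 was higher (2.51). The neuronal enolase Eno2 averaged 187 ± 101 in kidney and 11035 ± 674 in the 10 ng reference, a log2 fold change of -6.04 (limma adjusted p = 0.000238). The muscle enolase Eno3 stood at -2.14 and the phosphoglycerate kinase Pgk1 at -0.74, both called lower.

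The glycolytic kinases that run against gluconeogenesis were mostly lower. Of 8 measured, 6 were called lower and 1 higher, with a median of -1.38. Over all probe sets tested, 37.1% were called lower and 22.7% higher, with a median of -0.34. Hexokinase 2 (Hk2) averaged 100 ± 36.8 in kidney and 2564 ± 223 in the 10 ng reference, a log2 fold change of -4.68 (limma adjusted p = 8.96e-05). The platelet-type phosphofructokinase Pfkp stood at -1.75 and the pyruvate kinase Pkm at -1.69, both called lower. Pklr, the pyruvate kinase known from liver and red cells, was the 1 called higher (1.58, limma adjusted p = 0.024). Among 4 genes that set fructose 2,6-bisphosphate, an inhibitor of fructose-bisphosphatase, Pfkfb2 was called lower (-0.77) and 3 were not called. Their median of -0.38 lay near the -0.34 of all probe sets tested, of which 37.1% were called lower. This list thus did not stand out from all probe sets.

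Genes that supply carbon for the pathway were mostly higher. Of 13 genes of lactate, amino acid and glycerol entry, 9 were called higher and 1 lower, with a median of 0.85. Over all probe sets tested, 22.7% were called higher and 37.1% lower, with a median of -0.34. Pdk2, a kinase that turns off pyruvate dehydrogenase, averaged 2072 ± 53.4 in kidney and 94.1 ± 38.2 in the 10 ng reference (log2 fold change 4.48, limma adjusted p = 0.000135), and the related kinase Pdk4 stood at 2.0. The glycerol 3-phosphate dehydrogenase Gpd1 stood at 3.30, and the lactate dehydrogenase subunit Ldhb at 2.91. The other lactate dehydrogenase subunit, Ldha, was the 1 called lower (-0.98, limma adjusted p = 0.00161).

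The list of fructose and glucose handling next to the members also holds Hao2, Agxt2 and Grhpr, which act on hydroxyacids and glyoxylate. It had a median of 5.45, or 4.46 with signals under background raised to it, with 7 of 8 called higher and 1 lower. The shares of all probe sets tested were 22.7% called higher and 37.1% called lower. Hao2 and Agxt2 had the largest log2 fold changes of the list, at 10.25 and 7.69. Hao2, a hydroxyacid oxidase, was at least 306-fold higher in kidney, and Agxt2, an aminotransferase that uses glyoxylate, at least 55.9-fold higher. The glucose transporter Slc2a2 averaged 4069 ± 229 in kidney and 27.2 ± 14.1 in the 10 ng reference (limma adjusted p = 7.6e-05), and the fructose transporter Slc2a5 was at least 25.5-fold higher in kidney. Slc2a1, the glucose transporter known from most cells, was the 1 called lower (-0.86, limma adjusted p = 0.00186). Hao2, Agxt2, Slc2a2 and Slc2a5 passed the filter on low signals only through the kidney arrays and therefore had to differ. Their calls and p-values are descriptions.

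Among 11 transcriptional regulators known from gluconeogenesis, 6 were called higher, 1 was called lower and 4 were not called, with a median of 0.52. The shares of all probe sets tested were 22.7% called higher and 37.1% called lower, with a median of -0.34. Hnf4a, a nuclear receptor of liver and kidney epithelium, averaged 11116 ± 427 in kidney and 34.8 ± 5.51 in the 10 ng reference (limma adjusted p = 4.09e-06). The receptor Ppara was at least 22.2-fold higher in kidney, and the zinc finger factor Klf15 at least 8.45-fold higher. Both passed the filter on low signals only through the kidney arrays and therefore had to differ, so their calls are descriptions. The coactivator Ppargc1a averaged 6981 ± 196 in kidney and 750 ± 167 in the 10 ng reference (log2 fold change 3.23). Cebpb was the 1 called lower (-1.18), and the uncalled genes were Crtc2, Creb1, Nr3c1 and Esrra.

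**Figure D4:**
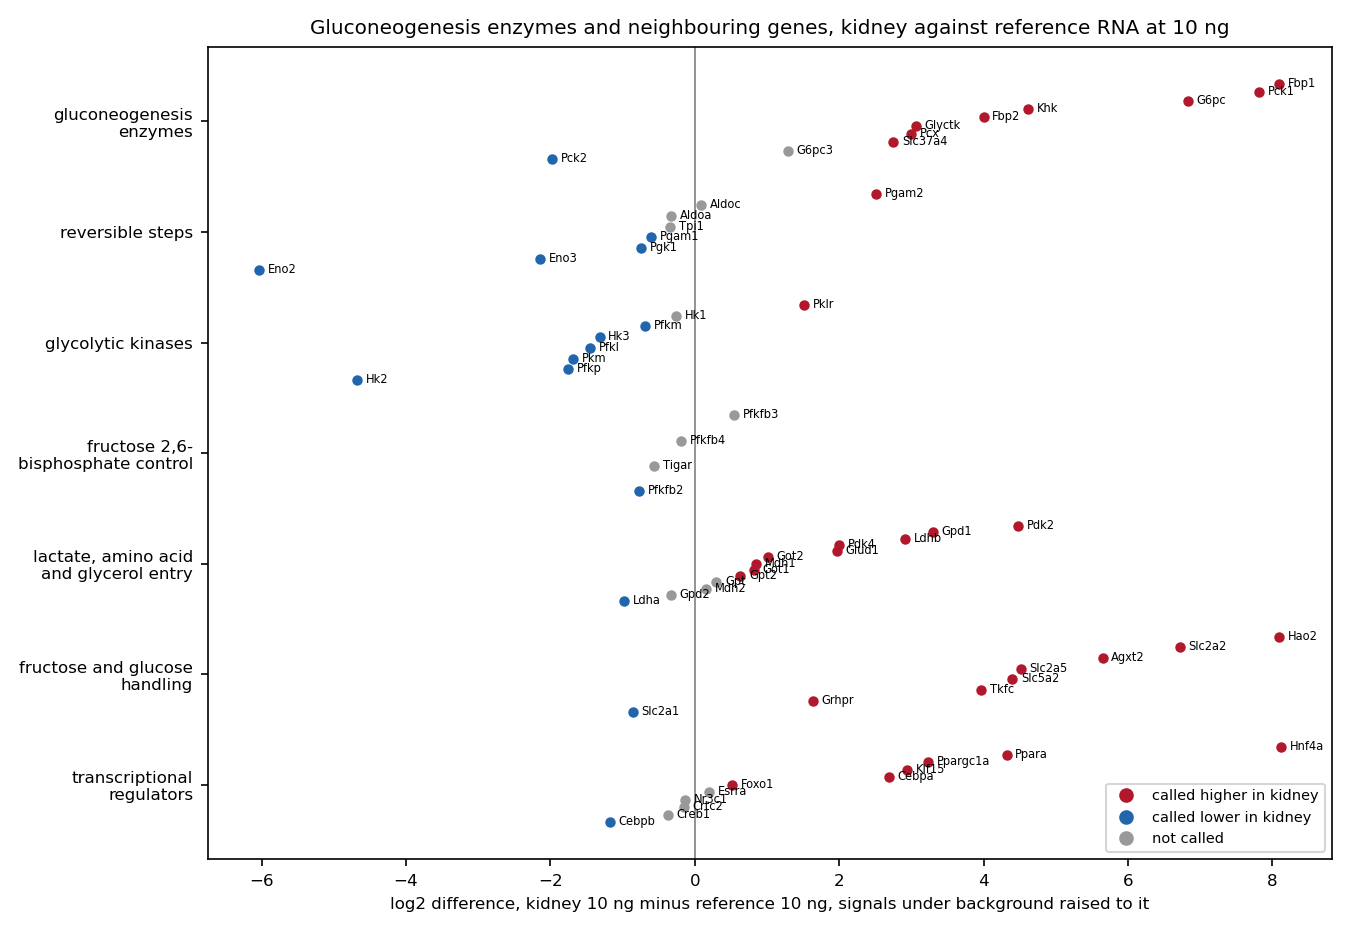
Log2 difference between kidney and the reference at 10 ng, with signals under the background level of 33.65 raised to it, for the 10 gluconeogenesis genes (top row) and the genes of 6 neighbouring lists below, 1 point per gene by its brightest probe set. Red marks genes called higher in kidney, blue those called lower and grey those not called. Fbp1, Pck1 and G6pc lie at the far right of the top row with Pck2 at its left, and Eno2 and Hk2 lie farthest left in their lists.

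The genes whose signal followed Fbp1 most closely over the 12 arrays were Dnase1, Il18bp and Cyb5b, each with a Pearson correlation of 0.988 on log2 values. Those closest to Pck2 were Faxc (0.991), Spon2 (0.991) and Rfc3 (0.990). The search covered 12755 genes, and 948 of them had a correlation above 0.9 with Fbp1 and 1052 with Pck2. The 12 points come from only 2 RNAs and share them within groups, so these values are descriptions and carry no p. Fbp1 lay below background on every reference array, so the order of its closest genes rests partly on signals that have no order. Dnase1 averaged 8627 ± 358 in kidney and 12.2 ± 10.5 in the 10 ng reference. Il18bp averaged 563 ± 69 and 51.3 ± 2.57 in the same groups, and Cyb5b 6792 ± 142 and 2374 ± 112. Faxc averaged 125 ± 85.7 in kidney and 3243 ± 224 in the 10 ng reference.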

How the data were processed

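Mouse RNA was measured on 12 arrays, with groups and replicate numbers read from their titles. The authors deposited intensities on a linear scale for 45101 probe sets. The values themselves show a 2% trimmed mean of 500 on every array. Software, background correction and genome build were not given in the sources used here. Symbols came from the platform's probe table, and all 10 member gene IDs had the same symbol in the RefSeq GRCm38.p6 gene table. Members, lists and alternatives were chosen with earlier results of these data known.

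From the deposited intensities, log2(signal + 3.9) was computed, 3.9 being the 10th percentile of positive values. The 64 control probe sets were left out. A probe set was tested when its highest group mean exceeded 72.68, the 40th percentile of that quantity, which kept 27022. R 4.3.3 with limma 3.58.1 (functions lmFit, eBayes) fitted each comparison on its 6 arrays, two-sided, with Benjamini-Hochberg adjustment over 27022 probe sets and a threshold of 0.05. Each fit takes 1 variance for both groups, although the 0.3 ng arrays spread more. Background, 33.65, is the 95th percentile of the signals of 27 probe sets for Bacillus controls. Where a group had all its arrays under it, the fold is the geometric mean of the brighter group over 33.65, a lower bound. Folds on the log2(signal + 3.9) scale understate changes of dim genes.

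A gene was represented by its probe set with the highest mean log2 signal. Every member is named, with every probe set. From each neighbouring list the text names up to 4 called genes with the largest change against the 10 ng reference, plus genes called singly against the direction of their list, which were chosen after their values were seen. List genes without a probe set naming them alone were not analysed here. The script was tested on simulated data. Alternatives were pseudocounts of 1 and 16, signals raised to background, no filter, a filter on the mean, quantile normalization, median centring, 1 fit of all arrays, a replicate block, array weights and each array left out.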

Additional observations from a re-analysis of the deposited data

How the results depend on the processing

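Over the 14 member probe sets and all comparisons, 1405 results under alternatives, another probe set of the gene included, kept their side of the threshold, 19 calls were lost, 8 were gained and 0 called values reversed, and 64 uncalled values changed sign. The lost and gained calls concern G6pc3, the second Pck2 probe set, the first Glyctk probe set and Pcx between reference inputs. With arrays centred on their medians, the calls for kidney against the 10 ng reference split into 7463 higher and 7774 lower, against 6147 and 10022 as deposited, and those against 3 ng into 7469 and 6499, against 5829 and 9316. The median of all probe sets for kidney against 10 ng was -0.10 when centred and -0.22 after quantile normalization, against -0.34, and for reference 0.3 ng against 10 ng it was 0.21 when centred, against -0.23; called members kept their directions. The replicate numbers did not pair the arrays (correlations of deviations from -0.062 to 0.0143). With a replicate block, 14523 probe sets were called for kidney against 10 ng (16169 without), 13343 against 3 ng (15145 without) and 6492 against 0.3 ng (9298 without), with 13, 14 and 11 member probe sets called (13, 14 and 12 without), the lost call being the first Glyctk probe set against 0.3 ng (limma adjusted p = 0.0668). Leaving out 1 array moved the 9298 calls against 0.3 ng over 5429 to 10134, lowest without a kidney replicate. Between reference 3 ng and 10 ng, 0 calls became 1 with a filter on the mean, 1 with centring and 5 with all arrays in 1 fit. Between 0.3 ng and 10 ng, 214 calls became 520 with signals raised to background, 76 without a filter, 72 after quantile normalization, 78 with centring, 1539 in 1 fit, 0 with the replicate block and 48 with array weights, and 0 (without any one 10 ng replicate) to 562 (without 0.3 ng replicate 1) with 1 array left out. Between 0.3 ng and 3 ng, 50 calls became 105, 0, 3, 19, 1344, 0 and 0 under the same alternatives in that order, and 0 without any 1 array. In 1 fit of all arrays 1 member probe set (Pcx) was called between 0.3 ng and each other reference input, against 0. The causes were not tested, and fewer arrays enter the fits that leave 1 out. For members below background in the reference, only lower bounds of the fold are known.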
